A study of Mus musculus with 12 samples.

Results

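The 12 malignant peripheral nerve sheath tumours of this series were divided by how much Cdkn2a RNA each one held. The classes were defined by the measured value and not by a label: a tumour was Cdkn2a-low when Cdkn2a stood under 40 CPM (the count times 1000000, divided by the total of the library) and Cdkn2a-high otherwise. By this rule 4 of the 12 tumours were low and 8 were high. The low class held 1 vehicle, 1 regressing and 2 terminal combination tumours, and the high class held 3, 3 and 2.

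Malignant peripheral nerve sheath tumours are aggressive sarcomas of the nerve sheath. Here they were raised in mice of the strain labelled C57B/6, genotype WT, with an adenovirus carrying Cas9 against Nf1 and against a gene spelled Cdk2na in the labels, which is taken to be Cdkn2a. All 3 groups share this origin, so the vehicle tumours carry it too, and the labels name no promoter or cell type for the Cas9. The labels give neither the age of the mice nor whether each tumour came from a separate mouse. Vehicle tumours have the harvest label terminal. Regressing tumours came from mice given 100 mg/kg palbociclib, an inhibitor of CDK4 and CDK6, and 1 mg/kg mirdametinib, an inhibitor of MEK, each day by mouth, and were taken while they shrank. Terminal combination tumours had the same drugs and the harvest label terminal. Each group has 4 bulk RNA libraries, numbered here in the order of deposit.

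Cdkn2a encodes 2 unrelated tumour suppressors from overlapping reading frames. p16INK4A binds CDK4 and CDK6 and keeps them from phosphorylating RB, which holds E2F factors and their S phase genes silent. p19ARF binds MDM2 and so stabilises p53. Loss of this locus is a common step between a benign neurofibroma and a malignant nerve sheath tumour, and cells that lack RB function commonly hold high p16INK4A RNA.

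The RNA of both products starts at separate promoters on the minus strand of chromosome 4, upstream of separate first exons. The 250 bases before each RefSeq start, and before that of the neighbouring gene Cdkn2b, which encodes the related inhibitor p15INK4B, are shown because the level of this locus chose the classes. They come from RefSeq, build GRCm38.p6, read 5′ to 3′ on the minus strand, with any E2F-type motif in capitals. The GENCODE transcripts, which give the gene positions used elsewhere, start farther upstream in both cases that differ. The last 34 bases of the p19ARF window and the last 7 of the Cdkn2b window therefore lie inside the GENCODE transcript, and the p16INK4A starts are the same.

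Cdkn2a, p19ARF start (chr4:89294620-89294869): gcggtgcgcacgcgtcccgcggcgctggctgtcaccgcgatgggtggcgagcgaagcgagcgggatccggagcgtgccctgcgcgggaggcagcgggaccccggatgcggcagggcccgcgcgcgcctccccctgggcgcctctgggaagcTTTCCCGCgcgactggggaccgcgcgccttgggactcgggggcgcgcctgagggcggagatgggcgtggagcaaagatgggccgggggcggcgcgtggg

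Cdkn2a, p16INK4A start (chr4:89282193-89282442): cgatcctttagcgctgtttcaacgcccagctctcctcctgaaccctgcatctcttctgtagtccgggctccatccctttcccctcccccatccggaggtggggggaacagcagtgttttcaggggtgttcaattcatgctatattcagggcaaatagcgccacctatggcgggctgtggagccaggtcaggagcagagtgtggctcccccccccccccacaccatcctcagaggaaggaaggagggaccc

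Cdkn2b start (chr4:89311033-89311282): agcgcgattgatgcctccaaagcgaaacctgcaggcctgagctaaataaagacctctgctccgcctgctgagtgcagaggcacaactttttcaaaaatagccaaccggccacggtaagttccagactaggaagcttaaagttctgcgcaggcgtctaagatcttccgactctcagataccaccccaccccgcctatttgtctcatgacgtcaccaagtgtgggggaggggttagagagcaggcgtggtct

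The motifs searched on both strands were TTTCCCGC, TTTGGCGC, TTTCGCGC and TTTGCCGC, of which no pair can match the same bases on the same strand. The p19ARF window held 1 match, on the letters in capitals, and the other windows held 0. Of 32851 promoter windows of the same length, 611 (1.86%) held at least 1 of these motifs. The p19ARF window is 78.4% G and C with 40 CpG pairs, against 60% and 7 in the p16INK4A window, 53.6% and 12 in the Cdkn2b window and a median of 52.4% G and C over all windows. These are descriptions of letters and say nothing of which factor was bound.

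Cdkn2a (ENSMUSG00000044303, chr4:89274471-89294653, minus strand) was read at 5.47 CPM in vehicle replicate 3, 7.55 in regressing replicate 2, 20.9 in terminal combination replicate 1 and 24.2 in terminal combination replicate 4. In the high class it ran from 94.9 CPM in regressing replicate 4 through a median of 229 to 352 in regressing replicate 1. These values chose the classes, so they carry no test. The tumours just inside and just outside the 40 CPM limit stood at 24.2 and 94.9 CPM, and no tumour lay between them. The highest tumour held 64.3 times the CPM of the lowest. Even in vehicle replicate 3 the value rested on 100 reads, where a count of 0 would have allowed up to 0.164 CPM.

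The counts are per gene. The 2 annotated Cdkn2a transcripts, of 895 and 852 bases, share a stretch of 578 bases, so the share of p16INK4A and p19ARF RNA cannot be read from them, and neither can an edited sequence. No other annotated gene overlaps Cdkn2a, and its longest stretch in common with a Cdkn2b transcript is 23 bases. In bulk tissue, fewer tumour cells and less Cdkn2a RNA per tumour cell cannot be told apart.

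Nf1, the other gene named as a target of the Cas9, encodes neurofibromin, which switches RAS off. On the scale used from here on, CPM with library sizes adjusted by the trimmed mean of M values (TMM), Nf1 stood at 22.0, 12.5, 23.8 and 12.1 in vehicle replicate 3, regressing replicate 2 and terminal combination replicates 1 and 4. Among the 8 high tumours it ran from 10.2 through 17.3 to 21.8 CPM. The classes overlapped, and the difference of low minus high was 0.11 on the log2 scale (SE 0.28, edgeR unadjusted p = 0.694). A read count for Nf1 does not show whether the gene was cut.

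**Figure D1:**
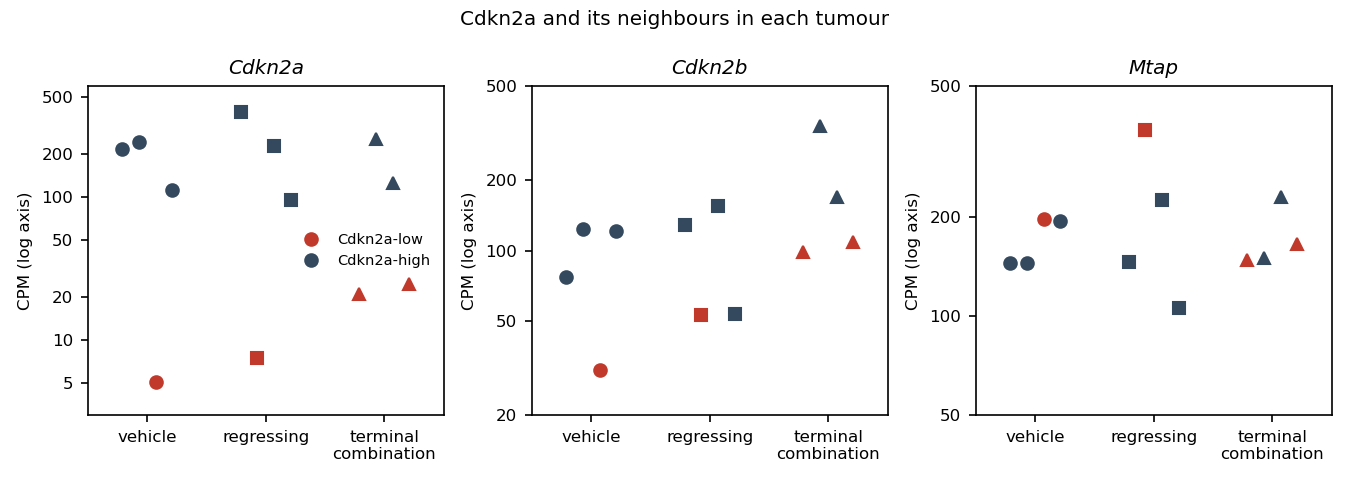
Level of Cdkn2a, Cdkn2b and Mtap in each of the 12 tumours, 1 point per tumour, in TMM-adjusted CPM on log axes, by treatment group, with the 4 Cdkn2a-low tumours in red. Cdkn2a separates the classes because it chose them. Within each treatment group the low tumours hold the lowest Cdkn2b values, from 31.0 to 109 CPM, and they are mixed with the others for Mtap.

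Facts of the libraries were compared first. Totals ran from 17089999 to 19804633 reads in the low class and from 13194699 to 22639625 in the high class. Mitochondrial genes took 0.838% to 1.23% of reads in the low class and 0.562% to 2.14% in the high class. RNA of Y-linked genes was present in 2 of 4 low and 3 of 8 high tumours, and 1 of 4 low and 3 of 8 high libraries have titles ending in FFT, which the labels do not explain. Each title also holds a code of letters and a number, likewise unexplained, that was not used. Sox10, a factor of the Schwann lineage, was at 0 to 1.16 CPM in the low class and 0 to 2.10 in the high class. It was thus near absent from both, but it is 1 gene. Summed over the 14 Schwann lineage genes tested, the low tumours held 245 to 336 CPM and the high tumours 188 to 558.

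The comparison of the classes asked which other genes go with a low Cdkn2a level, with treatment group as a covariate. Of 16067 genes tested, 0 passed an adjusted p of 0.05 in edgeR's quasi-likelihood test in either direction (0.0% higher and 0.0% lower in the low class), and the smallest adjusted p was 0.999. At an unadjusted p under 0.05 there were 265 genes higher (1.65% of those tested) and 272 lower (1.69%), 537 in all or 3.34%. DESeq2 called 1 gene higher, Bdkrb1, and 1 lower, Crym, and limma-voom called 0. The median difference over all genes was 0.00 on the log2 scale, with 8050 of 16067 (50.1%) on the higher side, and the median SE was 0.29. None of the differences below therefore passed the test across all genes in edgeR, and each is given as a value with its error.

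The genes with the smallest p on the higher side were led by Bdkrb1 (ENSMUSG00000041347, chr12:105603085-105605428), which encodes the inducible B1 receptor for bradykinin. It stood at 8.28 CPM in vehicle replicate 3, 1.86 in regressing replicate 2, 2.36 in terminal combination replicate 1 and 1.88 in terminal combination replicate 4, against 0.293 to 1.34 with a median of 0.627 in the high class. Every low tumour was above every high tumour, and the highest low value was that of vehicle replicate 3. The difference was 2.45 (SE 0.48, 95% interval 1.39 to 3.51, unadjusted p = 0.000378).

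Csgalnact1, an enzyme that starts chondroitin sulfate chains, was at 89.4, 61.2, 48.6 and 51.0 CPM in the same 4 low tumours and at 23.7 to 63.8 with a median of 32.2 in the high class. All 4 low tumours were above the median of the high class, with a difference of 0.92 (SE 0.20), and only vehicle replicate 2 of the high class lay in their range. Il13ra1, a receptor chain for interleukin 13, differed by 0.66 (SE 0.15), at 65.0 to 170 CPM against 43.8 to 99.9. Terminal combination replicates 1 and 4, at 65.0 and 68.9 CPM, lay under the high class median of 70.7. Mmp8, a neutrophil collagenase, differed by 3.2 (SE 0.74) at levels of 0.154 to 2.89 CPM against 0 to 0.446. Igkv8-28, an immunoglobulin light chain segment whose reads may be shared with similar segments, is the remaining gene of this set. It owes its place to regressing replicate 2, with 26.3 CPM against 0 to 0.205 in the other low tumours.

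On the lower side the smallest p belonged to Crym (ENSMUSG00000030905, chr7:120186380-120202111), which encodes a thyroid hormone binding protein of the cytosol. It was at 0.305 CPM in vehicle replicate 3, 0.0581 in regressing replicate 2, 0.256 in terminal combination replicate 1 and 0.0569 in terminal combination replicate 4. The high class ran from 0.828 through 1.34 to 11.5 CPM and did not overlap them. The fitted difference was −4.38 (SE 0.91), and since these low values rest on few reads its size depends on the prior count.

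Cdkn2b was next, and its values are given with the neighbours of Cdkn2a. Scml4, a Polycomb-group gene, followed at −1.97 (SE 0.48), Fam20c, a kinase of secreted proteins, at −1.39 (SE 0.35) and Amot, which encodes the Hippo pathway scaffold angiomotin, at −1.33 (SE 0.35). Amot ran from 34.8 to 65.5 CPM in the low class and from 41.4 to 276 in the high class, so the classes overlapped.

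**Figure D2:**
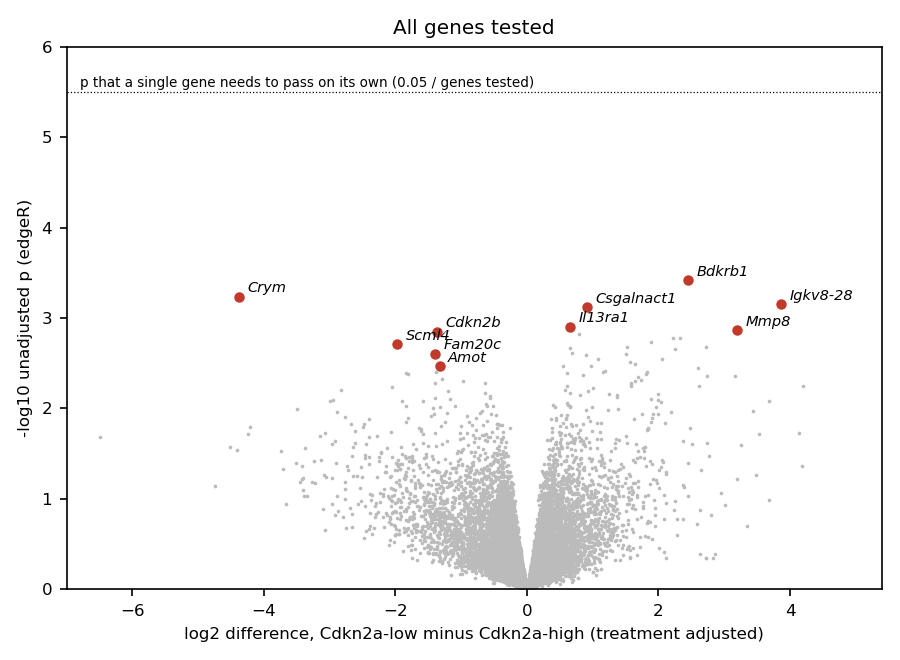
Each point is 1 of the genes tested, with the treatment-adjusted log2 difference (low minus high) on the x axis and −log10 of the unadjusted edgeR p on the y axis; the 5 genes with the smallest p in each direction are in red and named. The dotted line marks the p that a single gene would need to pass on its own, and all points lie under it.

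Genes whose classes did not overlap at all were rare. Every low tumour lay above every high tumour for 11 genes (0.0685% of those tested) and below for 15 (0.0934%). Beside Bdkrb1 the first set held Fnip2, which encodes a folliculin partner (24.4 to 44.7 CPM in the low class, 14.4 to 23.2 in the high class), and Sprr1a, a protein of the cornified envelope (6.39 to 16.4 against 0 to 3.21). It also held Abcc4, an exporter of drugs and cyclic nucleotides, at 22.7 to 30.6 against 11.9 to 22.1 CPM. Beside Crym the second set held Hoxa4, a homeobox gene, at 0.569 to 0.769 against 0.876 to 2.10 CPM. Fnip2, Sprr1a, Abcc4 and Hoxa4 were picked after their values were seen.

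Around the locus itself, 87 annotated genes start within 2 Mb (megabases) of Cdkn2a and 14 of them had enough reads to test. Of these 8 were on the higher and 6 on the lower side, with a median of 0.14. Over all genes tested 3.34% had an unadjusted p under 0.05, and here 1 of the 14 did. That gene was Cdkn2b (ENSMUSG00000073802, chr4:89306299-89311039, minus strand). It stood at 31.0 CPM in vehicle replicate 3, 53.2 in regressing replicate 2, 99.0 in terminal combination replicate 1 and 109 in terminal combination replicate 4, against 53.8 through 126 to 338 in the high class. The lower pair of low tumours for Cdkn2a was also the lower pair for Cdkn2b, and the classes overlapped. The difference was −1.36 (SE 0.32, 95% interval −2.06 to −0.66, unadjusted p = 0.00141, adjusted p = 0.999 in edgeR). Within each treatment group the low tumours held the lowest Cdkn2b values, although regressing replicate 2 differed little from regressing replicate 4 (53.2 and 53.8 CPM).

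Mtap, a methionine salvage enzyme on the other side of Cdkn2a that is often lost together with it in human tumours, was on the higher side. It read 197, 368, 148 and 166 CPM in the 4 low tumours and 105 through 148 to 230 in the high class, a difference of 0.38 (SE 0.28, 95% interval −0.23 to 0.99). The highest value of all was in regressing replicate 2, which held the second lowest Cdkn2a. Dmrta1, the next gene tested on the side of Cdkn2b, stood at 0.609 to 8.89 CPM against 1.20 to 22.4, a difference of −1.27 (SE 0.74), with its lowest value in vehicle replicate 3. Mllt3, a subunit of the transcription elongation machinery farther out on the side of Mtap, differed by −0.68 (SE 0.31). Over all of chromosome 4 the median difference was −0.00 for 984 genes, and the medians of the 20 chromosomes lay between −0.06 and 0.13.

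The 6 tested inhibitors of the INK4 and CIP families, Cdkn2b among them, divided 3 to 3 with a median of 0.04. Without Cdkn2b 3 were higher and 2 lower, with a median of 0.14. Cdkn2c (p18INK4C) differed by 0.14 (SE 0.24), Cdkn1b (p27) by 0.20 (SE 0.21) and Cdkn1a (p21) by −0.15 (SE 0.48). The signs of Cdkn2c and Cdkn1a turned under other settings.

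Among 19 genes of the RB and G1 cyclin pathway 12 were higher and 7 lower, with a median of 0.08 and 0 at an unadjusted p under 0.05. Rb1 itself was at 17.3, 14.6, 11.1 and 21.7 CPM in the low tumours and 10.2 through 16.4 to 25.5 in the high class (−0.13, SE 0.29). Cdk4, the kinase that p16INK4A and palbociclib both inhibit, read 443, 375, 547 and 293 CPM against 268 through 353 to 507, a difference of 0.26 (SE 0.20). Cdk6 differed by −0.00 (SE 0.22, 95% interval −0.50 to 0.49), although terminal combination replicate 4 held 127 CPM of it and the other low tumours 55.1 to 59.4. Ccnd1, the cyclin partner of both kinases, read 293 CPM in vehicle replicate 3, under every other tumour, and 603 to 1034 in the other low tumours, against 596 through 929 to 1538, a difference of −0.67 (SE 0.31).

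Genes that E2F switches on for S phase were on the higher side in 24 of 25 cases, with a median of 0.30, against 50.1% and 0.00 over all genes. None had an unadjusted p under 0.05. Rrm2, a subunit of ribonucleotide reductase, led them at 164, 104, 42.6 and 29.9 CPM in the low tumours and 19 through 57.0 to 93.3 in the high class, a difference of 0.78 (SE 0.38). Only vehicle replicate 3 and regressing replicate 2 lay above the high class. Prim1, a primase subunit, differed by 0.57 (SE 0.33) and Uhrf1, a partner of maintenance DNA methylation, by 0.50 (SE 0.30).

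Summed over the list, the S phase genes reached 2403 CPM in vehicle replicate 3, 2192 in regressing replicate 2, 1389 in terminal combination replicate 1 and 987.5 in terminal combination replicate 4, within the 896 to 2352 of the high class or just above it. Among the terminal combination tumours alone the list median was −0.27, with 8 of 25 members higher. G2 and mitosis genes gave like values, with 23 of 25 higher and a median of 0.20, and 3 of 25 higher and −0.64 among the terminal combination tumours. Mki67, the common proliferation marker, read 169, 63.7, 58.2 and 24.9 CPM in the low tumours against 28.7 through 53.3 to 153 (0.28, SE 0.34). With the muscle content of each library as a covariate, 14 of 25 S phase genes were higher and 11 lower (median 0.05), and 4 of 25 mitosis genes were higher and 21 lower (median −0.19).

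On the p53 arm, 16 of 30 target genes were higher and 14 lower, with a median of 0.06. Trp53 read 218, 255, 202 and 217 CPM in the low tumours and 113 through 175 to 313 in the high class (0.21, SE 0.28), and Mdm2, its ubiquitin ligase and the partner of p19ARF, differed by 0.07 (SE 0.22). Phlda3, a p53 target that restrains AKT, was the only 1 of the 30 with an unadjusted p under 0.05. Over all genes tested the share was 3.34%, so a count of 1 does not set this list apart. It read 77.1, 77.1, 120 and 153 CPM against 109 through 125 to 259, a difference of −0.67 (SE 0.23, unadjusted p = 0.0154). Cdkn1a, the best known target, read 171, 75.6, 134 and 133 CPM, inside the 23.4 to 277 of the high class.

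Output genes of MEK and ERK, the arm that mirdametinib blocks, were lower in 12 of 18 cases with a median of −0.20. Spry1, a feedback inhibitor of the pathway, read 37.3, 41.3, 181 and 117 CPM in the low tumours against 78.3 through 120 to 201 (−0.91, SE 0.33), so that vehicle replicate 3 and regressing replicate 2 were below the high class and the others within it. Etv1, an ERK-induced transcription factor, differed by −0.86 (SE 0.39). Myc went the other way, at 0.85 (SE 0.32), with 384 CPM in vehicle replicate 3 and 70.7 to 98.2 in the other low tumours, against 48.3 to 139. Fosl1, an AP-1 subunit, stood at 404 CPM in terminal combination replicate 4 against 27.6 to 125 in the other 11 tumours. Regulators of RAS split 9 higher and 7 lower (median 0.08), and receptor tyrosine kinases and their ligands 6 and 19 (median −0.19), with Egf at −1.96 (SE 0.82). Egf ran from 0.355 to 5.30 CPM in the low class and from 0.214 to 20.6 in the high class. Its 3 highest values were in regressing replicates 1 and 4 and terminal combination replicate 2, the 3 libraries richest in muscle RNA.

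**Figure D3:**
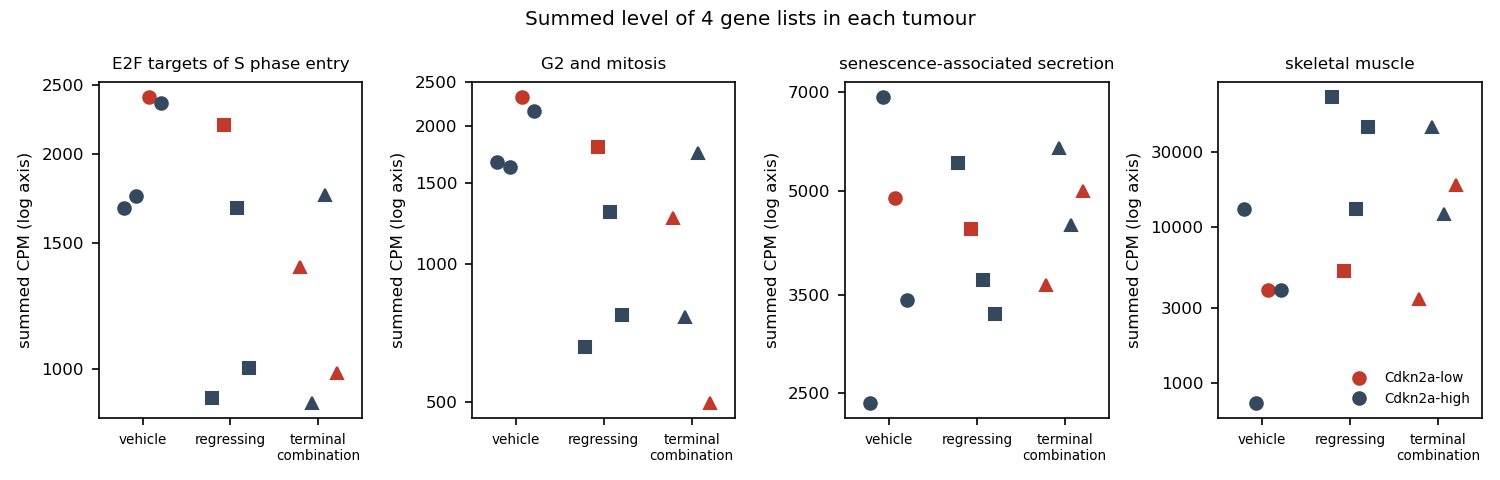
Summed TMM-adjusted CPM of 4 gene lists in each tumour, 1 point per tumour, on log axes, by treatment group, with the Cdkn2a-low tumours in red. The low vehicle and regressing tumours lead their groups for S phase genes while a low terminal combination tumour has the lowest mitosis sum, and the skeletal muscle sums span 744 to 67862 CPM.

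Polycomb repressors, which silence the Cdkn2a locus in many normal cells, were higher in 13 of 20 cases with a median of 0.09. Ezh2, the methyltransferase, differed by 0.11 (SE 0.19) and Bmi1, another Polycomb repressor, by −0.18 (SE 0.17). Homeobox and other genes that Polycomb commonly holds silent divided 16 to 12 with a median of 0.19, which turned to −0.52 when the low tumours between 10 and 40 CPM were left out.

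Secreted factors of senescent cells were higher in 16 of 23 cases with a median of 0.82. Of the 23, 3 had an unadjusted p under 0.05, against 3.34% of all genes tested. Summed over the list, the low tumours held 3612 to 5000 CPM, inside the 2415 to 6895 of the high class. Ccl7, a monocyte chemokine, read 46.8, 101, 184 and 89.5 CPM in vehicle replicate 3, regressing replicate 2 and terminal combination replicates 1 and 4, against 12.1 through 23.5 to 59.4 in the high class (1.82, SE 0.50, unadjusted p = 0.00396). Ccl2, its neighbour and a related chemokine, read 42.3, 355, 529 and 281 CPM against 16.8 through 42.8 to 241 (2.51, SE 0.96), so vehicle replicate 3 lay under the median of the high class and the other low tumours above its highest value. Cxcl1, a neutrophil chemokine, was at 0.399 to 6.09 CPM against 0 to 0.691 (2.62, SE 0.76). The list median moved with 1 library: it was 0.06 without vehicle replicate 3 and 0.09 among the terminal combination tumours alone, and Mmp9 was on the lower side at −1.0 (SE 0.61).

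Hypoxia and glycolysis genes were higher in 13 of 16 cases with a median of 0.37. Ndrg1, which is induced by low oxygen, read 173, 96.0, 128 and 67.9 CPM in the low tumours against 35.6 through 58.6 to 88.9 (1.09, SE 0.28, unadjusted p = 0.00284). Slc2a1, the glucose transporter GLUT1, read 170, 96.5, 107 and 78.6 CPM against 47.2 through 65.7 to 106 (0.65, SE 0.21). For both genes vehicle replicate 3 was the highest of the 12 tumours, and without it the list median was 0.02.

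Markers of other cells were compared for the whole of each list. T cell markers were higher in 16 of 17 cases (median 0.41), with sums of 81.2 to 166 CPM in the low class and 29.2 to 740 in the high class, so the low tumours lay inside the range of the others. Over the alternatives the T cell median ran from −0.84 to 1.78. Cytotoxic lymphocyte genes were higher in 10 of 11 (median 0.35, sums 20.9 to 76.8 against 5.42 to 165), with a median between −0.60 and 2.12 over the alternatives. Both of these medians turned below 0 without terminal combination replicate 4, to −0.07 for T cells and −0.12 for cytotoxic lymphocytes. Macrophage markers were higher in 12 of 15 (0.26, from −0.12 without regressing replicate 2 to 0.58). Interferon response genes were higher in 19 of 31 (0.09, from −0.11 to 0.80), and their median was below 0 without any 1 of vehicle replicate 2, regressing replicates 1 and 3 and terminal combination replicate 2 (−0.01, −0.01, −0.04 and −0.09). Antigen presentation genes were higher in 14 of 15 (0.24, from 0.04 to 0.69) and endothelial markers in 11 of 12 (0.31, from 0.07 to 0.62), on the higher side in every alternative. None of these lists had a member called in edgeR, and their part in the other differences was not tested.

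B and plasma cell markers divided 6 to 6 with a median of −0.04, and their sums ran from 381 to 2048 CPM in the low class and 461 to 1774 in the high class. Regressing replicate 2 held the highest sum of all 12. Neutrophil markers were higher in 5 of 6 tested genes (median 1.01, sums 18.0 to 61.8 against 11 to 26.4), with the top sum in vehicle replicate 3 and a median of −0.61 without it. Red blood cell genes were higher in 6 of 6 (1.02, sums 132 to 2139 against 61.7 to 784).

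Skeletal muscle genes had the lowest median of the 30 lists, −1.70, with 16 of 17 lower in the low class. Ckm, muscle creatine kinase, read 25.0, 412, 330 and 1269 CPM in the low tumours and 59.5 through 887 to 6824 in the high class (−2.67, SE 0.92, unadjusted p = 0.0149). The summed list ran from 3442 to 18592 CPM in the low class and from 744 to 67862 in the high class, so it overlapped, and the high class held both the lowest and the 3 highest libraries. Over the alternatives its median ran from −2.23 to 0.01, and the value at 0.01 is that with the muscle score itself as a covariate. Muscle progenitor genes were lower in 10 of 12 (−1.22, from −2.58 to −0.09 over the alternatives). Keratinocyte genes were lower in 4 of 6 (−0.91, from −3.51 to 1.00, the last among the terminal combination tumours alone). Only these 6 of the 14 listed had enough reads to test, and Krt5 and Krt14 were not among them. Their sums were low, 7.82 to 25.7 CPM in the low class and 8.15 to 25.4 in the high class. Adipocyte genes were lower in 9 of 11 (−0.36), but their direction was not stable, with a range from −1.85 to 0.75. Their median was above 0 without vehicle replicate 3 (0.17), regressing replicate 2 (0.01) or regressing replicate 4 (0.08). Schwann lineage genes were lower in 9 of 14 (−0.17, from −0.73 to 0.26, the last with muscle content in the fit). The part of muscle tissue in the other differences was not tested beyond the covariate and the libraries left out. With the muscle score as a covariate edgeR still called 0 genes, and the smallest adjusted p was 0.117.

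**Figure D4:**
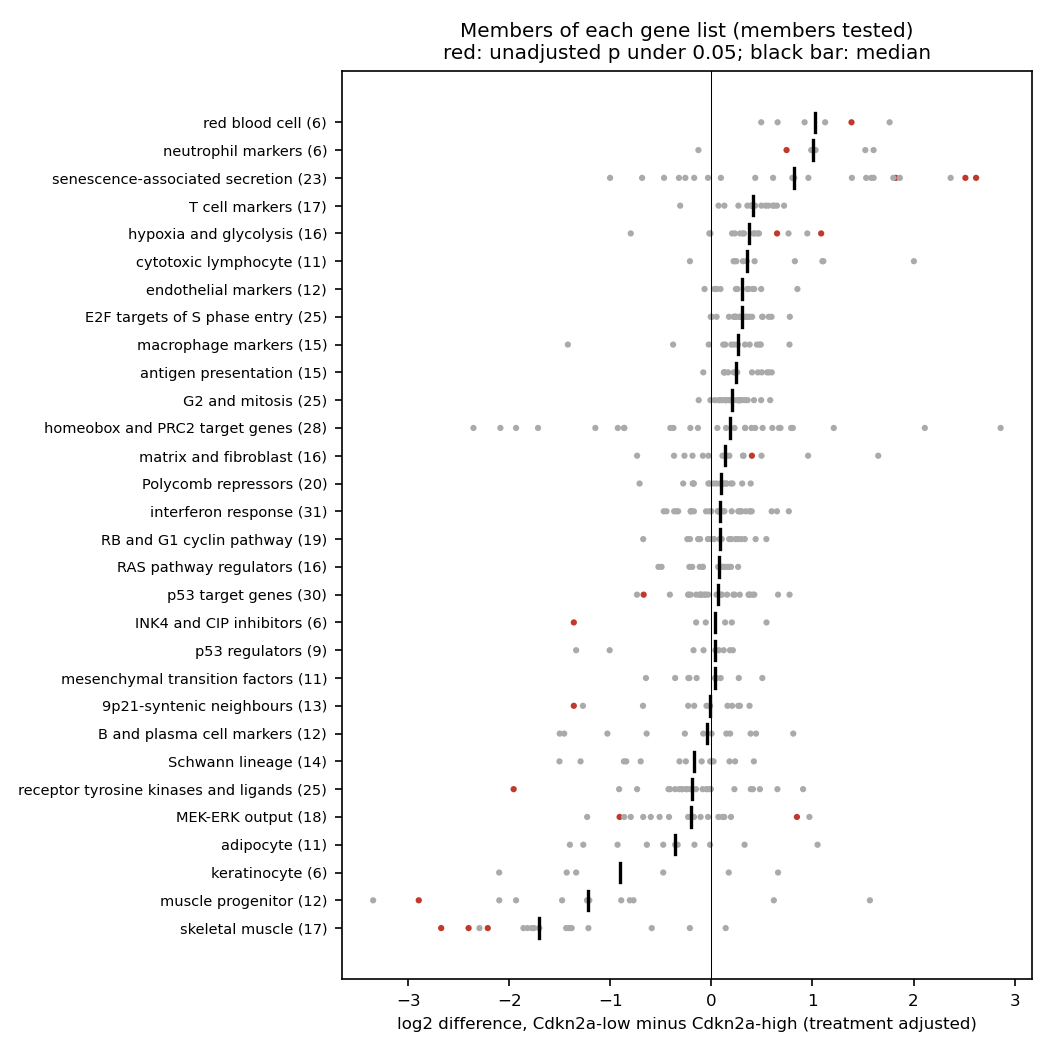
Each grey or red point is 1 member of a gene list with its treatment-adjusted log2 difference, low minus high. Red marks an unadjusted p under 0.05, black bars are list medians, and numbers in brackets are members tested. Medians run from −1.70 for skeletal muscle to 1.02 for red blood cell genes, and most lists sit within 0.5 of 0.

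The low tumours were not alike among themselves, and the plainest difference was in runs of neighbouring genes. Each library was scanned for stretches in which at least 5 of 7 consecutive genes stood 4-fold or more above or below the median of the other 11 libraries, over 12945 genes with a median of 2 CPM or more. This rule was set after the data were seen. It found 3 such stretches in the 4 low tumours and 5 in the 8 high tumours.

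Both stretches of vehicle replicate 3 were higher than in the other tumours. The first covers 28 genes over 7.20 Mb of chromosome 4 (chr4:94614491-101815352), at higher coordinates than Cdkn2a, and 22 of its genes passed the 4-fold limit, with a median of 3.21 on the log2 scale. Jak1, the kinase of cytokine receptors, read 6005 CPM there against 196 to 278 in the other 11 tumours. Jun, an AP-1 subunit, read 2069 against 158 to 274, and Pgm1, phosphoglucomutase, 3891 against 46.9 to 255. Raver2 and Ak4 were farthest from the rest, with 671 against 1.14 to 5.87 CPM and 1318 against 2.91 to 17.4 CPM. In between lie genes with little or no difference, such as the pseudogene Gm12693 at 4.42 against 2.62 to 4.84 CPM.

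Toward Cdkn2a the pattern in vehicle replicate 3 changed direction. Relative to the median of the other tumours, Caap1 stood at 4.55 and Tusc1 at 1.91 on the log2 scale. Then came Dmrta1 at −2.38, Cdkn2b at −1.95, Cdkn2a at −4.49 and Gm12606 at −0.68. Beyond them Mtap stood at 0.39, Gm12602 at 0.59 and Wincr1 at 1.44. Dmrta1 read only 0.609 CPM in this tumour, and it stood at −1.77 in vehicle replicate 1, a high tumour. The second stretch lies on chromosome 15 (chr15:60818994-64060478) and covers 5 genes with Myc among them. Myc read 384 CPM against 48.3 to 139, the noncoding Pvt1 beside it 121 against 5.14 to 23.3, and Fam49b 1105 against 71.7 to 138.

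Terminal combination replicate 4 held 1 stretch, 43 genes over 0.856 Mb of chromosome 19 (chr19:5406740-6262335), of which 33 passed the 4-fold limit with a median of 2.28. Rela, the p65 subunit of NF-kappaB, read 869 CPM against 93.0 to 159 in the other 11 tumours. Fosl1 is in this stretch, as is Cfl1, which encodes the actin-severing protein cofilin and read 6839 against 861 to 2139. Malat1 and Neat1, noncoding RNAs inside it, stood at 31.5 and 23.7 CPM, within the 3.64 to 62.3 and 5.14 to 88.5 of the others.

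At 4-fold the 5 stretches of high tumours were of another kind, families of like genes side by side. Vehicle replicate 2 was low for 5 genes of the myosin heavy chain cluster, from Myh3 to Myh8, and it also has the lowest muscle score. Regressing replicate 4 was high for stretches with the class I histocompatibility, Ifit, Oas and Gimap families, which are interferon-induced or lymphocyte genes. A wider window, at least 8 of 11 genes, found the chromosome 4 and chromosome 19 stretches again. The Myc stretch and all 5 of the high tumours have only 5 or 6 genes past the limit, too few for that rule, so it compares lengths and not classes. At 2-fold there were 29 stretches in the low and 45 in the high class. Gene families were not confined to the high class at that limit. Regressing replicate 2, a low tumour, was higher from Aif1 to H2-Q7 and from Acta2 to Ifit1. Regressing replicate 2 and terminal combination replicate 1 held none at 4-fold. The highest whole-chromosome medians were in terminal combination replicate 1, at 0.594 for chromosome 10, 0.589 for chromosome 3 and 0.543 for chromosome 15 on the log2 scale. High tumours came next, with 0.431 for chromosome 19 in vehicle replicate 2 and 0.398 for chromosome 3 in vehicle replicate 1. Cdk4, Mdm2 and Cdk1 lie on chromosome 10 and were highest in terminal combination replicate 1, at 547, 122 and 156 CPM. Prim1, Scml4 and Myf6 lie on it too and were not highest in that tumour. The part of the whole chromosome in these values was not tested. RNA counts do not measure DNA copy number, which was not tested.

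**Figure D5:**
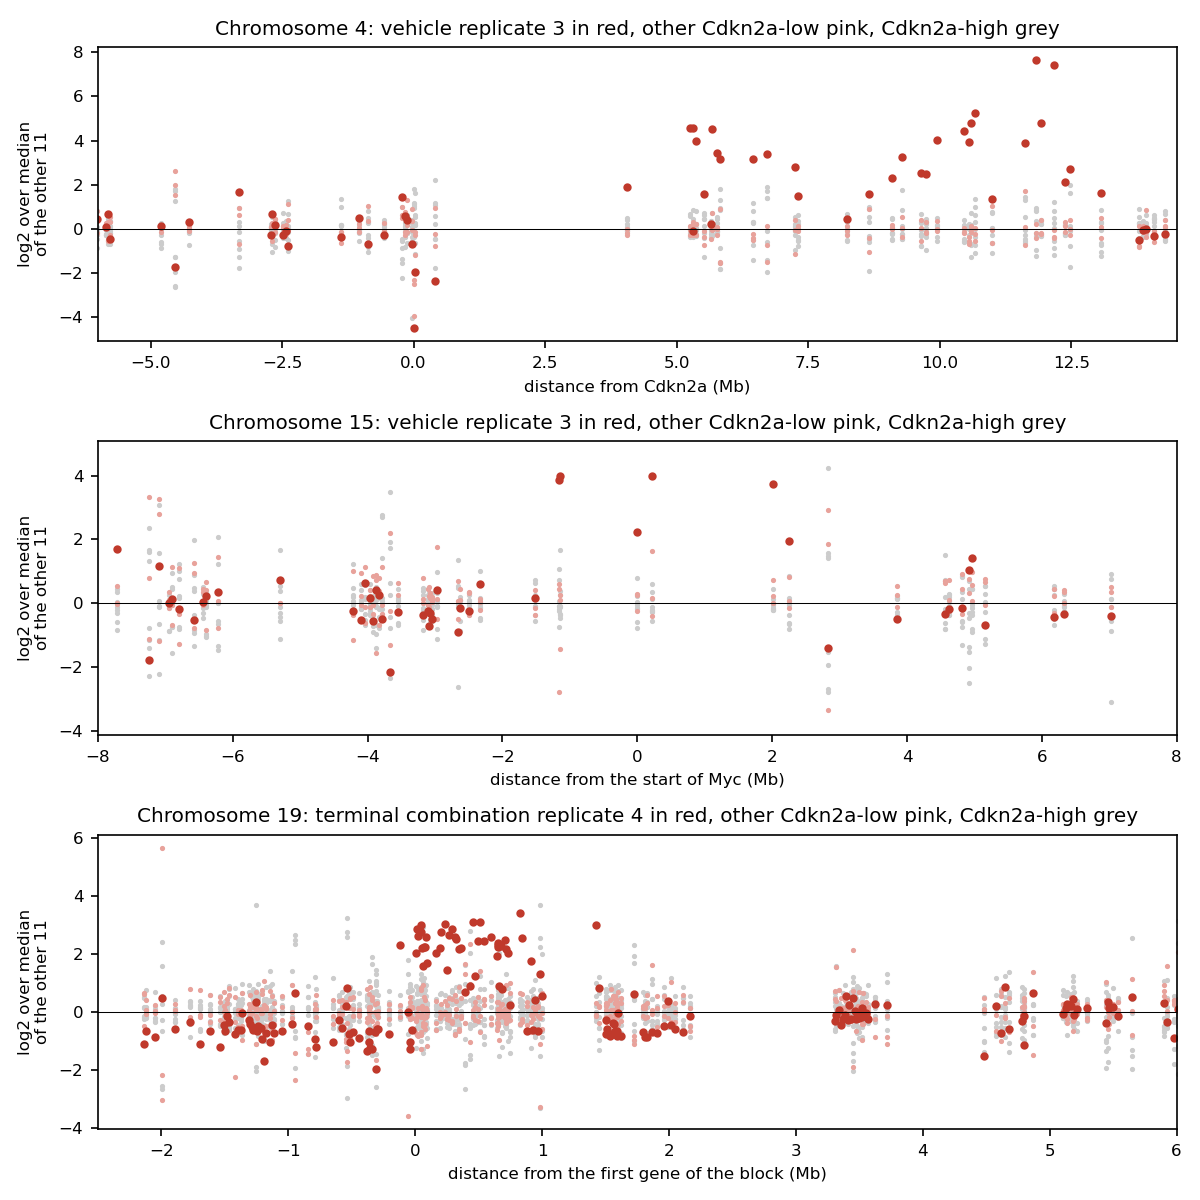
Each column of points is 1 gene, at its distance in Mb from Cdkn2a, from Myc or from the first gene of the chromosome 19 stretch; the y axis is the log2 level in a tumour over the median of the other 11. Vehicle replicate 3 (upper panels) and terminal combination replicate 4 (lower panel) are in red, other low tumours in pink and high tumours in grey. Runs of red points near 2 to 8 stand above the rest, and Cdkn2a at distance 0 lies at −4.49 in vehicle replicate 3.

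These stretches reach into the lists above: Myc and Fosl1 are on the MEK-ERK list and Tek, at 51.5 CPM in vehicle replicate 3 against 7.29 to 28.4, is on the endothelial list. The genes whose class difference itself differed between treatment groups lie in or next to them. In a fit with a class by treatment term over 17769 genes, edgeR called 5, all highest in vehicle replicate 3, the single low tumour of its group: Plaa (adjusted p = 0.0147), Pgm1 and Jak1 (both adjusted p = 0.0191), and Caap1 and Fam49b (both adjusted p = 0.0411). Plaa read 1941 CPM in vehicle replicate 3 and 65.0 to 113 in the other 11. Each such interaction rests on that 1 library.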

How the data were processed

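Per the labels' protocols, RNA came from an RNeasy mini extraction and libraries from the TruSeq Stranded mRNA kit. The values deposited by the authors are raw counts, 1 whole number for each of 54532 Ensembl genes in each of 12 libraries. Per the submitters' processing notes, HISAT2 2.2.1, Salmon and DESeq2 1.24.0 were used with the builds mm10 and GRCm38.p6. Which tool counted, on which strand and against which annotation release is not given in the sources used here, so overlapping genes and close copies may share reads. Symbols and positions came from GENCODE M21 (GRCm38), where 54495 identifiers matched.

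The threshold of 40 CPM, the gene lists and the rule for named genes were chosen with earlier results of these data known. The classes come from the measured Cdkn2a CPM, and Cdkn2a was left out of the tests. After filterByExpr, set to a minimum count of 10 and a minimum total of 15, and TMM normalisation, counts were fitted with edgeR's quasi-likelihood model to all 12 libraries, with class and treatment group as terms. Benjamini-Hochberg adjustment ran over the 16067 genes tested, and the threshold was 0.05. Intervals are 95%. The steps were also run on simulated data, and the share of true changes they recovered is not given here. Nothing in the labels ties each tumour to its own mouse, so a p-value here covers only the spread between samples, which may be technical. No pair of libraries was a duplicate (lowest chi-square per degree of freedom 56.8).

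Totals ran from 13194699 to 22639625 reads, and the limit for a count of 0 was set at 3 counts, which covers counting error only. The 30 lists hold 511 symbols, of which 472 were tested, and are described by counts and medians with no test of a list. A muscle or adipocyte score is the mean log2 CPM of that list with a prior count of 2. Named genes are the 5 with the smallest p in each direction, up to 3 members of each list and Cdkn2a, Cdkn2b, Mtap, Trp53, Mdm2, Cdkn1a, Rb1, Cdk4, Cdk6, Mki67 and Nf1. Outside this rule, Dmrta1, Gm12602, Gm12606, Wincr1, Sox10, Ezh2, Bmi1, Fosl1 and Mmp9 were picked after their values were seen. So were the genes whose classes did not overlap and those of the stretches. Alternatives changed the normalisation, filter, tool, covariates, limit on Cdkn2a and libraries. Sex as a covariate, leaving out the 3 libraries richest in muscle RNA, and the interaction of class and treatment were added after seeing the data. The scan for stretches used log2(CPM + 0.5). Fits used edgeR 4.0.16, DESeq2 1.42.0 and limma 3.58.1 under R 4.3.3. Tables and figures used Python 3.11.15, with matplotlib 3.10.9, numpy 2.4.6 and pandas 2.3.3.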

Additional observations from a re-analysis of the deposited data

Results flagged for a closer look

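In each class the lowest and highest tumour of every named gene was compared with the others of its class by Dixon's ratio, the gap to the nearest other tumour over the whole range. The ratio was taken on log2(CPM + 0.5), while the values printed below are in CPM. Of 128 pairs of a gene and a class, 16 passed the 95% limit, 0.829 for 4 tumours and 0.526 for 8, where about 1 in 20 groups passes by chance.

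Among the 4 low tumours, vehicle replicate 3 stood apart for Bdkrb1 (8.28 CPM, the others 1.86 to 2.36), for Pfkp, the platelet-type phosphofructokinase (135 CPM, the others 32.5 to 37.2), and for Tbx2, a repressor of Cdkn2a in other settings (1.62 CPM, the others 6.22 to 7.49). Terminal combination replicate 4 stood apart for Cdk6 (127 CPM, the others 55.1 to 59.4) and, on the low side, for the cycle genes Cdk1 (29.7 CPM, the others 121 to 156), Kif11 (10.2 CPM, the others 42.0 to 55.4) and Prim1 (8.03 CPM, the others 24.3 to 30.3). Regressing replicate 2 stood apart for Csf3r, the receptor for the granulocyte growth factor (26.6 CPM, the others 15.3 to 16.5), and for Igkv8-28 (26.3 CPM, the others 0 to 0.205).

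Among the 8 high tumours, regressing replicate 4 stood apart for Cd79a, a chain of the B cell receptor (57.8 CPM, the others 0 to 1.46), Ccl2 (241 CPM, the others 16.8 to 59.4), Igkv8-28 (3.15 CPM, the others 0 to 0.577) and, on the low side, Rasa1, a RAS inhibitor (39.6 CPM, the others 77.4 to 122). Vehicle replicate 1 held 0 CPM of the homeobox gene Lhx8 (the others 6.36 to 39.0), where a count of 0 allows up to 0.133 CPM. Vehicle replicate 2 held 63.8 CPM of Csgalnact1 (the others 23.7 to 37.5) and terminal combination replicate 2 held 104 CPM of Fam20c (the others 21.5 to 40).

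The class difference varied between treatment groups by an interaction term in edgeR for 5 of 17769 genes: Plaa (adjusted p = 0.0147), Pgm1 (adjusted p = 0.0191), Jak1 (adjusted p = 0.0191), Caap1 (adjusted p = 0.0411) and Fam49b (adjusted p = 0.0411). All 5 were highest in vehicle replicate 3, the 1 low vehicle tumour, with 142 CPM of Caap1 against 4.29 to 9.13 in the other 11 tumours. Unadjusted, 504 genes had a p under 0.05 in this fit.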

How the results depend on the processing

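The count of genes called in edgeR was 0 in each direction under every alternative except DESeq2, which called 1 higher and 1 lower, and it ran from 0 to 0 with each library left out in turn. The smallest adjusted p among the edgeR and limma alternatives was 0.117. The 537 genes with an unadjusted p under 0.05 (3.34% of those tested) became 285 (1.75%) in libraries without the FFT ending, 341 (2.22%) in the terminal combination libraries, 808 (4.85%) with Cdkn2a as a continuous term, 851 (5.10%) with sex, 872 (5.48%) in DESeq2 and 906 (5.43%) with the muscle score. With no filter on low counts there were 833, a lower share (3.09%) of the 26932 genes then tested. With 1 library left out they ran from 435 (2.63%) to 1039 (6.28%), with the top values without terminal combination replicate 3 (1039) and without terminal combination replicate 4 (899, 5.43%). No paired analysis was possible because the replicate numbers used here follow the order of deposit, and the unexplained codes in the titles are not stated to pair tumours: 2 of their numbers recur in another treatment group and 1 is found in both classes.

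Of 64 named genes 59 could be fitted under all 27 alternatives, and 45 of these kept their sign. Cd79a, Cdh19, Cxcl1, Igkv8-28 and Mmp8 fell under the filter on low counts in some, and 4 of these 5 kept their sign where fitted. Of 810 list medians under alternatives 758 moved by less than 1 SD of the list's mean log2 level over the high tumours. The median kept its sign in every alternative for 8 of 30 lists: MEK-ERK output, receptor tyrosine kinases, senescence-associated secretion, antigen presentation, endothelial, muscle progenitor, red blood cell, and hypoxia and glycolysis. The following signs turned, with log2 differences, and the cause was not tested. Without the FFT libraries the values were −0.041 for Cdkn2c, 0.105 for Cdk6, −0.0896 for Mki67, −0.0332 for Cdk1, −0.184 for Mdm2, 0.0429 for Rb1 and −0.241 for Nf1. In the terminal combination libraries they were −0.449 for Ccne2, −0.293 for Mtap, 0.17 for Cdk6, −0.422 for Mki67, −0.295 for Rrm2 and −0.0409 for Myc. With the muscle score they were −0.0249 for Cdkn2c, 0.111 for Cdk6, −0.147 for Cdk1, 0.265 for Rb1, 0.604 for Cdkn1a and −0.0413 for Kif11. Without the 3 libraries richest in muscle RNA they were 0.019 for Rb1 and −0.107 for Trp53. With the adipocyte score they were 0.0149 for Cdk6 and 0.00433 for Rb1. Without the treatment covariate they were −0.00717 for Cdkn2c and 0.125 for Cdk6. With low tumours of 10 to 40 CPM left out they were 0.271 for Cdh19 and 0.0787 for Cdkn1a. Cdk6 was 0.000642 by RLE, 0.00295 with no filter and 0.00061 in DESeq2, and Cdkn1a 0.0501 in limma-voom and 0.000194 with continuous Cdkn2a. With each library left out in turn, the ranges that crossed 0 were −0.149 to 0.897 for Ccne2, −0.0391 to 0.554 for Mtap, −0.0768 to 0.275 for Cdkn2c, −0.256 to 0.126 for Cdk6, −0.161 to 0.221 for Mdm2, −0.0782 to 0.277 for Nf1 and −0.369 to 0.137 for Cdkn1a.

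With 4 against 8 tumours and a median SE of 0.29, a gene's difference had to be large against the spread to be seen. Genes near a count of 0, such as Crym, Mmp8 and Cxcl1, rest on few reads. The low class holds 1 vehicle and 1 regressing tumour, so within those groups its difference rests on single libraries.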
